A study of Mus musculus with 12 samples.

Results

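Untreated mouse cornea was described here from the 3 libraries of wild-type (WT) mice that received no treatment, called control 1, 2 and 3. They were 3 of 11 independent RNA sequencing libraries in the series, and every gene was ranked by its mean counts-per-million value (CPM, a gene's share of the counts of its library) over the 3. The other libraries came from WT mice of a DED model (n = 3), from DED mice treated with exosomes by eye drop (n = 2) and from DED mice treated with exosomes by the i.v. route (n = 3). DED stands for dry eye disease in eye research, and exosomes are small membrane vesicles that cells release. The column labelled eye drop 3 equalled the average of eye drop 1 and 2, with a largest distance of 5e-09 on the log2 scale, and was not counted as a library. All samples were labelled cornea and carried the same batch date. The labels used here name no strain, sex, age or hour of collection, and they do not say whether the samples of a group were separate animals. The p-values below therefore measure the spread between these samples alone, which may be technical.

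Control 1, 2 and 3 held 12972945, 10893978 and 10985613 counts, within the 8956553 to 14263045 counts of the other 8 libraries. Control 1 and 2 differed most from each other, and control 3 was closer to both. A chi-square statistic per gene, which is near 1 when libraries differ by sampling noise alone, was 31.15 between control 1 and 2, 16.57 between control 1 and 3, and 10.6 between control 2 and 3. No pair was thus a repeat of one library. Genes at 1 CPM or more in all 3 libraries numbered 13209, of which 1476 were at 100 CPM or more in all 3 and 74 at 1000 CPM or more in all 3. The 100 most abundant genes took 33.2% ± 2.15 of the counts (SD, n = 3), and the single most abundant gene took 3.32% ± 0.50 (SD, n = 3).

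The cornea is the clear front of the eye. A stratified epithelium covers a collagen-rich stroma of scattered keratocytes, and a single layer of endothelium lines the back. The epithelium is built on keratin filaments and desmosomes, is sealed at its surface by tight junctions and membrane mucins, and holds very large amounts of a few soluble enzymes, called corneal crystallins, that handle aldehydes and oxidants under ultraviolet light. The 4 genes that mark corneal epithelium here, Krt12, Krt5, Gsto1 and Aldh3a1, were the first 4 protein-coding genes in each of the 3 libraries, which is a description, since the same libraries gave the ranking.

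Krt12, the acidic keratin typical of corneal epithelium, had 27520, 36893 and 35184 CPM in control 1, 2 and 3. Krt5, the basic keratin that forms filaments with acidic partners in stratified epithelia, had 19364, 26530 and 22927 CPM. Gsto1, an omega-class glutathione transferase that also reduces dehydroascorbate, had 17379, 19261 and 20292 CPM. Control 1 was lowest for all 3 genes and for Aldh3a1, the aldehyde dehydrogenase that is the main corneal crystallin of mouse, at 14232, 19094 and 17904 CPM. These 4 genes held the same ranks in every control library.

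Levels can be set against each other between genes only per length, so counts were also divided by each gene's exon length and rescaled to transcripts-per-million (TPM). Per length, Krt12 stood clear at 47698 ± 5788 TPM (SD, n = 3), with its lowest library at 41068.5 TPM. Krt5 at 27782 ± 3507 TPM, Gsto1 at 25007 ± 1423 TPM and Aldh3a1 at 23398 ± 2781 TPM (SD, n = 3 each) had overlapping ranges over the 3 libraries, so their order was within the spread. Next per length came Lypd2, a small Ly6/uPAR family protein, at 15604 ± 1402 TPM, Calml3, a calmodulin-like protein of epithelia, at 14829 ± 825 TPM and Gsta4, a glutathione transferase that clears lipid aldehydes, at 13254 ± 770 TPM (SD, n = 3 each).

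The promoter windows of 4 of the 6 most abundant genes are shown because these loci lead the ranking and differ in 2 short motifs. Each runs from 250 bases before to 50 bases after the start of the gene in RefSeq's GRCm38.p6 annotation, read 5′ to 3′ on the gene's strand. Krt12 lies at chr11:99422210-99422509 on the minus strand, Krt5 at chr15:101712856-101713155 on the minus strand, Gsto1 at chr19:47854723-47855022 on the plus strand, and the first of the RefSeq windows of Emp1 at chr6:135362681-135362980 on the plus strand. Capitals mark TATAAA, the core promoter motif known as the TATA box, searched on the gene's strand with its first base 45 to 20 bases before the start, and TGANTCA, which covers the site that AP-1 factors bind, searched on both strands over the whole window.
Krt12: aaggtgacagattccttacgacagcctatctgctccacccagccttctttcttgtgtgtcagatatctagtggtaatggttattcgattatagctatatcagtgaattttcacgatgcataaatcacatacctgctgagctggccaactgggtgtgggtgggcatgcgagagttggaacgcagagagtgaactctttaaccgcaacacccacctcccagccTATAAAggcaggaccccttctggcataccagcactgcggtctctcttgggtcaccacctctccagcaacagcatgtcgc
Krt5: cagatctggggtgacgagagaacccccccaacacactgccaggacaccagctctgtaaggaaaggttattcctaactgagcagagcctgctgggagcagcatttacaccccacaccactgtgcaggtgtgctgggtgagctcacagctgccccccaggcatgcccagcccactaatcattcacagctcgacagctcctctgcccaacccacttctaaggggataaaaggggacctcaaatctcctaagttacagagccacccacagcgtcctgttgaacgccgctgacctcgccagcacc
Gsto1: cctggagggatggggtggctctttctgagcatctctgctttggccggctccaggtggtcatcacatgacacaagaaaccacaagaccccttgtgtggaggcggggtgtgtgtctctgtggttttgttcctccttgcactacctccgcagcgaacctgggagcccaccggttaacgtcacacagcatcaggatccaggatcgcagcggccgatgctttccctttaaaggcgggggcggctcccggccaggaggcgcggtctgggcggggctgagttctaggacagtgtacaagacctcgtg
Emp1: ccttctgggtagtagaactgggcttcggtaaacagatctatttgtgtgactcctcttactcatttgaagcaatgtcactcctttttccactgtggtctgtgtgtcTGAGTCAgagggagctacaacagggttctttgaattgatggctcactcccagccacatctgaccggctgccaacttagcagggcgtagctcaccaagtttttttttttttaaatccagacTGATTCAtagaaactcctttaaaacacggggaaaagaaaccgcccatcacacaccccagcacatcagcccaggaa

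In the Krt12 window TATAAA began 29 bases before the start. The Emp1 window shown held 2 copies of TGANTCA and no TATAAA at the searched place, and the windows of Krt5 and Gsto1 held neither motif. Another RefSeq window of Emp1, at chr6:135367243-135367542, held neither motif. RefSeq windows were matched for 64 of the 100 most abundant genes, 70 windows in all. TATAAA was present in 6 of these 70 windows (8.571%), those of Krt12, Muc4, Aqp3, Ppia, Plet1 and Anxa1, against 1.231% of the 12755 windows of genes at a mean of 1 CPM or more and 2.137% of all 32851 windows. TGANTCA was present in 10 of the 70 windows (14.29%), against 5.292% of the windows of genes at a mean of 1 CPM or more and 7.808% of all windows. Of 3 other motifs searched on both strands over the whole window, CCAAT was in 34.29% of the 70 windows, CACCC in 72.86% and GGGCGG in 54.29%, against 37.95%, 63.35% and 61.15% of the windows of genes at a mean of 1 CPM or more. These are matches of letters, and no binding was measured.

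**Figure D1:**
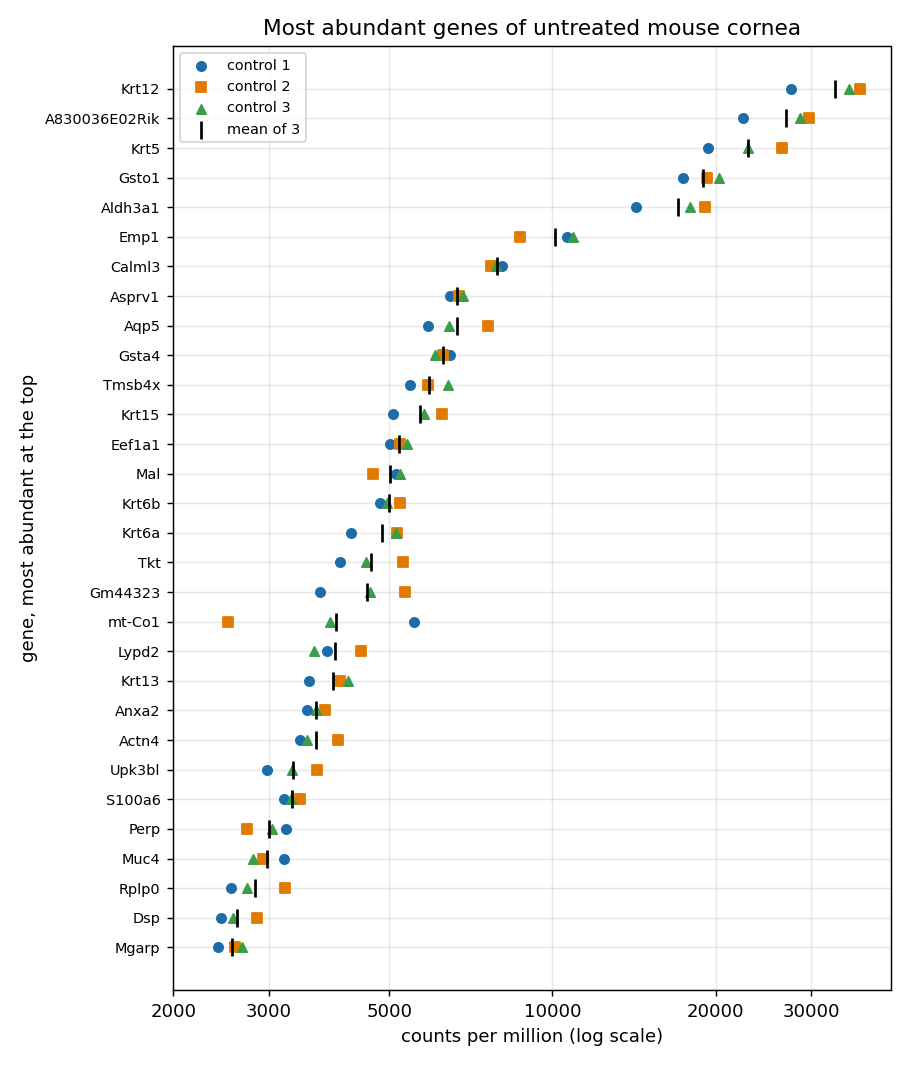
Counts-per-million values (CPM, log axis) of the 30 most abundant genes in each control library, one marker shape per library, with a bar at the mean of the 3. Krt12, Krt5, Gsto1 and Aldh3a1 stand far to the right in every library, control 1 is the lowest of the 3 for each of them, and mt-Co1 shows the widest gap between libraries, at 5558, 2522 and 3897 CPM.

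Below the leading 4, the next most counted genes were of several kinds. Emp1, a tetraspan membrane protein of epithelia, had 10661, 8718 and 10924 CPM in control 1, 2 and 3, and Calml3 had 8080, 7704 and 7886 CPM. Asprv1, a retroviral-like aspartic protease of stratified epithelia, had 6464, 6726 and 6834 CPM, one of the tightest of the leading genes with a coefficient of variation (CV, the SD as a percentage of the mean) of 2.85%. Aqp5, a water channel, had 5907, 7611 and 6450 CPM, and Gsta4 had 6475, 6292 and 6083 CPM. Control 1 was lowest for Asprv1 and Aqp5 and highest for Calml3 and Gsta4. Tmsb4x, which binds actin monomers, had 5455, 5892 and 6428 CPM, and Mal, a proteolipid of apical transport, had 5151, 4664 and 5235 CPM. Krt15 had 5076, 6250 and 5790 CPM. Apart from A830036E02Rik, treated next, the rest of the 30 most counted genes ranged in mean from 2562 CPM for Mgarp, a mitochondrial protein, to 5219 CPM for Eef1a1, which brings aminoacyl-tRNA to the ribosome.

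Some of the leading rows cannot be read as genes of their own. A830036E02Rik, the second most counted gene, lies on the strand opposite Krt12 and shares 1007 exon bases with it in the GENCODE M21 annotation. Its counts were 0.815, 0.805 and 0.815 times those of Krt12 in control 1, 2 and 3. Gm44323 is a feature of 129 bases annotated as a miRNA, wholly within Krt5 on the opposite strand, with 0.192, 0.201 and 0.201 times the counts of Krt5. Gm49428 shares 471 bases with Krt6a on the opposite strand and had 0.480, 0.497 and 0.484 times its counts. The sources used here do not say whether strand was used in counting, so reads of these pairs cannot be told apart. Antisense genes as a class took 4.30% of the counts, and protein-coding genes took 92.8%. Krt6a and Krt6b are near-identical copies, so the split of reads between them is uncertain too.

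Keratins had the largest summed CPM of the 20 families examined, and family sums were not compared per length. Of 50 keratin genes, 23 were at a mean of 1 CPM or more and 3 had no count in any control library. The family summed to 66903, 86973 and 81081 CPM in control 1, 2 and 3, lowest in control 1, and so to 7.83% of the counts. Per length, Krt15, a keratin of basal cells, followed Krt12 and Krt5 at 8600 ± 627 TPM. Krt6b had 5963 ± 113 TPM and Krt6a had 5351 ± 425 TPM, both keratins known from fast-renewing epithelia. Krt13, typical of moist stratified linings such as conjunctiva, had 5761 ± 347 TPM (SD, n = 3 each). Krt13 and Krt6b overlapped over the 3 libraries, so neither ranked above the other beyond the spread.

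A gap followed, down to Krt14, the usual acidic partner of Krt5 in basal epidermis, at 954 ± 90.8 TPM. Per length, the lowest Krt5 library was thus far above the highest Krt14 library. Krt4 had 741 ± 167 TPM, Krt19 had 375 ± 36.8 TPM and Krt80 had 299 ± 3.46 TPM (SD, n = 3 each). Krt10 and Krt1, the keratins of cornified skin, were far lower, with means of 12.4 and 4.73 TPM. Krt16, which is known to rise in stressed epithelium, had the largest CV of these 23 keratins (69.5%), at 14.02 TPM in control 1 against 75.9 TPM in control 2 and 95.8 TPM in control 3.

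**Figure D2:**
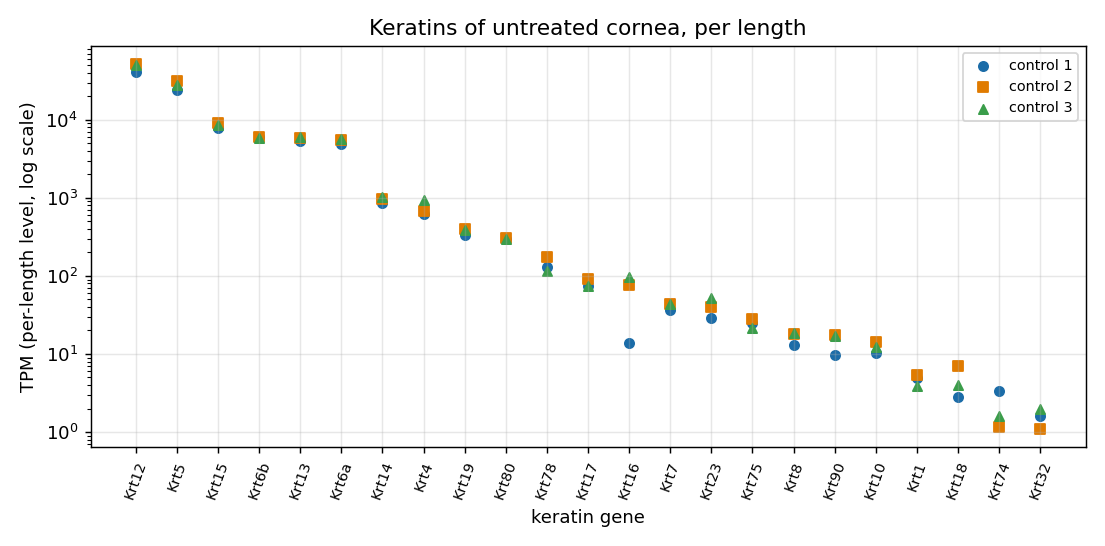
Per-length level (TPM, log axis) of the 23 keratin genes with a mean of 1 CPM or more, in order of level, with one marker per control library. Krt12 and Krt5 lead, Krt15, Krt6b, Krt13 and Krt6a form a second step with means of 5351 to 8600 TPM, and Krt16 shows control 1 far below the other controls.

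Enzymes of aldehyde, oxidant and glutathione metabolism were another large group. The list of corneal crystallin and antioxidant enzymes held 21 genes, all at 1 CPM or more, and summed to 45470, 53574 and 52361 CPM in control 1, 2 and 3. Gsto1, Aldh3a1 and Gsta4 made up most of it. Tkt, a transketolase of the pentose phosphate pathway and a known corneal crystallin, had 1676 ± 176 TPM. Prdx5, a peroxide-reducing peroxiredoxin, had 976 ± 122 TPM, Txn1, the cytosolic thioredoxin, had 969 ± 53.7 TPM and Prdx6 had 389 ± 22.6 TPM (SD, n = 3 each). Of 22 glutathione transferases, 16 were at a mean of 1 CPM or more, and Gsto1 and Gsta4, with 18977 and 6283 of the 25845 CPM of the family, dominated it.

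Glycolytic enzymes were moderate in comparison. Ldha, which makes lactate, led the list per length at 390 ± 27.97 TPM, followed by Pkm, pyruvate kinase, at 238 ± 32.6 TPM, Tpi1 at 205 ± 12.7 TPM and Eno1 at 190 ± 10.8 TPM (SD, n = 3 each). Gapdh, often taken as a reference gene, had only 27.3, 42.3 and 32.3 CPM in control 1, 2 and 3. The mouse genome holds many processed copies of Gapdh, so this count is uncertain. Aldoa was not analysed here because its row held values that were not whole counts.

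Genes of the barrier surface ranged widely in level. Muc4, a large membrane mucin, had 3205, 2932 and 2810 CPM in control 1, 2 and 3, and 678 ± 65.9 TPM per length. Muc20 had 558 ± 87.3 TPM, Muc21, listed under its older symbol Gm9573, had 413 ± 14.3 TPM, and Muc1 had 61.1 ± 6.54 TPM (SD, n = 3 each). Muc20 shares exon bases with Muc4 on the opposite strand, so their counts may mix. Muc16 had no count in any of the 3 libraries, which allows up to 0.231, 0.275 and 0.273 CPM in control 1, 2 and 3 (3 counts per library, counting error only). Lgals3, the lectin that cross-links membrane mucins, had 1394 ± 96.3 TPM and Sdc1, a heparan sulfate proteoglycan, had 990 ± 57.5 TPM (SD, n = 3 each).

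Uroplakins, the plaque proteins of the bladder surface, summed to 4700, 5190 and 4973 CPM, almost all from Upk3bl at 6790 ± 509 TPM and Upk1b at 2052 ± 200 TPM. The Ly6/uPAR family, small proteins that modulate receptors at cell surfaces, summed to 9127, 10824 and 9132 CPM and was led by Lypd2, by Psca at 6307 ± 632 TPM and by the secreted Slurp1 at 2035 ± 138 TPM (SD, n = 3 each). Cldn4 and Cldn7, claudins of tight junctions, had 810 ± 66.3 and 521 ± 44.6 TPM, followed in the junction list by F11r at 360 ± 25.7 TPM and Ctnnb1, the catenin of adherens junctions, at 330 ± 21.1 TPM (SD, n = 3 each). All 19 genes of that list were at 1 CPM or more. Small proline-rich proteins, which build the cornified envelope of skin, were low, with a family sum of 9.10, 21.3 and 22.6 CPM in control 1, 2 and 3.

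Cell adhesion genes were all detected. All 24 genes of the desmosome and hemidesmosome list were at 1 CPM or more, and their sum of 20179, 19764 and 18740 CPM in control 1, 2 and 3 had a CV of 3.79%. Perp, a desmosomal tetraspan protein, led per length at 4113 ± 467 TPM, followed by the plakins Evpl at 1028 ± 203 TPM, Ppl at 959 ± 87.2 TPM and Dsp at 724 ± 38.2 TPM (SD, n = 3 each). Col17a1, the transmembrane collagen of hemidesmosomes, took 1179 of the 1540 CPM of the whole collagen family. Of the 45 collagen genes, 1 reached a mean of 100 CPM, so the fibrillar collagens of the stroma were sparse in these libraries.

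Water and ion transport rested on a few genes. The 2 aquaporins above 100 CPM, Aqp5 at 6819 ± 697 TPM and Aqp3, which also passes glycerol, at 3089 ± 333 TPM, exceeded all other transporters of the list. Atp1b3, a subunit of the sodium pump, had 504 ± 74.0 TPM and Slc6a14, an importer of amino acids, had 298 ± 69.7 TPM (SD, n = 3 each). Among S100 proteins, which bind calcium, S100a6 had 6452 ± 72.0 TPM, S100a11 had 5463 ± 159 TPM, S100a10 had 2624 ± 313 TPM and S100a16 had 1288 ± 159 TPM (SD, n = 3 each). Pglyrp1, which binds bacterial peptidoglycan, had 652 ± 46.5 TPM. Cstb, a cystatin that inhibits cathepsins, had 1022 ± 64.2 TPM and Serpinb5 had 480 ± 90.002 TPM, followed by Cst3 at 286 ± 37.1 TPM and Serpinb1a at 106 ± 7.63 TPM (SD, n = 3 each).

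All 30 listed transcription factors of corneal epithelium were at 1 CPM or more, and 17 were at a mean of 100 CPM or more. Hopx, a small homeodomain-only cofactor, led per length at 1424 ± 137 TPM, then Elf3, an epithelial ETS factor, at 1268 ± 36.2 TPM, Klf4 at 708 ± 29.8 TPM and Id2 at 253 ± 26.4 TPM. Pax6, the master regulator of eye development, had 129 ± 20.7 TPM and Trp63, which maintains basal epithelial cells, had 64.5 ± 15.01 TPM (SD, n = 3 each). Immediate early genes, which respond quickly to stimuli, were led by Junb at 437 ± 66.2 TPM, Jund at 323 ± 70.04 TPM, Ier3 at 273 ± 30.2 TPM and Ier2 at 197 ± 37.3 TPM (SD, n = 3 each). Egr1, of the same kind, had 82.9, 81.1 and 30.2 CPM in control 1, 2 and 3, so control 3 was below the other controls.

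Signalling receptors were present at lower levels. P2ry2, the nucleotide receptor that drives fluid and mucin secretion, had 121 ± 10.04 TPM, Tnfrsf1a 119 ± 11.7 TPM and Erbb3 95.0 ± 12.7 TPM (SD, n = 3 each). All 24 receptors of the list were at 1 CPM or more. Of the circadian clock, the repressor Nr1d1 had 150 ± 8.77 TPM and the output factors Dbp and Hlf had 131 ± 14.2 and 105 ± 24.2 TPM, with Bhlhe40 at 107 ± 3.25 TPM (SD, n = 3 each). The activator Arntl was low at 13.1, 12.9 and 11.1 CPM in control 1, 2 and 3, which lay close together. Cell cycle genes were all detected, 23 of 23 at 1 CPM or more, led by Ccnd1 at 223 ± 29.8 TPM, Pcna at 138 ± 16.4 TPM, Rrm2 at 36.8 ± 3.56 TPM and Mcm6 at 33.8 ± 5.75 TPM (SD, n = 3 each). Mki67, a marker of cycling cells, had 97.2, 33.5 and 55.5 CPM, highest in control 1.

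Of the housekeeping families, the mitochondrially encoded genes differed most between libraries. The 83 cytosolic ribosomal protein genes summed to 56923, 66496 and 61814 CPM in control 1, 2 and 3, led per length by Rplp1 at 8058 ± 1658 TPM (SD, n = 3). Genes with many processed copies, as most ribosomal protein genes are in mouse, have uncertain counts. Mitochondrially encoded genes summed to 15224, 6666 and 9944 CPM, a CV of 40.7%, with control 1 highest and control 2 lowest. Annexins, which bind membranes in the presence of calcium, summed to 7270, 7007 and 7411 CPM, the lowest CV of the 20 families at 2.84%.

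Epithelial markers had by far the largest sums of the cell type lists. In bulk RNA, fewer cells of a type and less RNA per cell cannot be told apart. The corneal epithelium list of 12 genes summed to 87183, 111367 and 105176 CPM in control 1, 2 and 3, the superficial list to 11589, 11859 and 11044 CPM, and the basal and limbal list to 8246, 8671 and 8578 CPM, of which Krt15 made up most. Limbal markers were mixed, since Gpha2, a hormone subunit of limbal stem cells in mouse, had 171 ± 37.0 TPM (SD, n = 3), while Abcb5 was at 0 in 2 of the 3 libraries. The conjunctiva and goblet cell list summed to 4363, 5046 and 5347 CPM, of which Krt13 made up most. The mucin of goblet cells, Muc5ac, had 0.0771 CPM in control 1, no count in control 2 and 0.273 CPM in control 3, and the goblet peptide Tff3 had no count in any of the 3, under the limits of 0.231, 0.275 and 0.273 CPM.

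The other corneal layers gave little RNA. The keratocyte and stroma list of 17 genes summed to 306, 484 and 291 CPM, with none at 100 CPM, and was led per length by the proteoglycan Dcn at 38.5 ± 13.4 TPM, Ptgds at 33.6 ± 24.2 TPM, Angptl7 at 26.8 ± 11.02 TPM and Fbln1 at 22.9 ± 4.22 TPM (SD, n = 3 each). Kera, the keratan sulfate proteoglycan keratocan that defines keratocytes, had 22.6, 23.6 and 10.2 CPM, lowest in control 3. The endothelium list summed to 228, 171 and 196 CPM, but Alcam, which epithelia also make, held most of it. Slc4a11, the transporter that defines corneal endothelium, had only 9.17, 15.97 and 15.3 CPM, and Col8a2, of its basement membrane, had 4.47, 23.9 and 15.1 CPM.

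Nerve and immune markers were low too. The Schwann cell and nerve list summed to 216, 201 and 216 CPM, of which Mbp held most at 167, 156 and 173 CPM. The defining gene Sox10 was at most 0.459 CPM in the control libraries, and Mbp and Ngfr made up nearly all of that sum. The macrophage list summed to 121, 101 and 114 CPM, led per length by Itgam at 36.2 ± 9.38 TPM and Cd68 at 35.8 ± 2.39 TPM, and the dendritic and Langerhans cell list summed to 35.7, 41.9 and 36.7 CPM, led by Cd74 at 19.8 ± 0.674 TPM (SD, n = 3 each). Lymphocyte markers summed to 2.16, 2.02 and 1.91 CPM with Cd3g and Nkg7 at 0, and neutrophil markers to 1.62, 4.41 and 2.91 CPM with Ly6g and Retnlg at 0. The mast cell sum of 171, 118 and 116 CPM was mostly Kit, and Fcer1a was at 0. Vessel markers summed to 8.09, 15.3 and 13.4 CPM, pericyte and smooth muscle markers to 11.9, 11.7 and 12.9 CPM and red blood cell markers to 30.6, 27.2 and 14.5 CPM.

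Among neighbouring tissues, retina and lens markers differed most between the control libraries. Retina markers summed to 33.6, 580 and 157 CPM in control 1, 2 and 3. Lens markers summed to 14.5, 106 and 340 CPM, led by the crystallin Cryaa at 0.694, 43.0 and 126 CPM. Control 2 was thus highest for retina, control 3 for lens and control 1 lowest for both. Iris and melanocyte markers summed to 36.8, 51.2 and 43.1 CPM, skeletal muscle markers to 36.8, 26.4 and 57.6 CPM and lacrimal and salivary markers to 19.0, 24.4 and 29.9 CPM. In the 8 libraries of DED mice the retina sum ran from 50.4 to 2675 CPM and the lens sum from 6.36 to 3102 CPM. With the lens, retina and muscle lists left out of the totals, the mean keratin sum was 78356 CPM, and with them it was 78319 CPM.

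**Figure D3:**
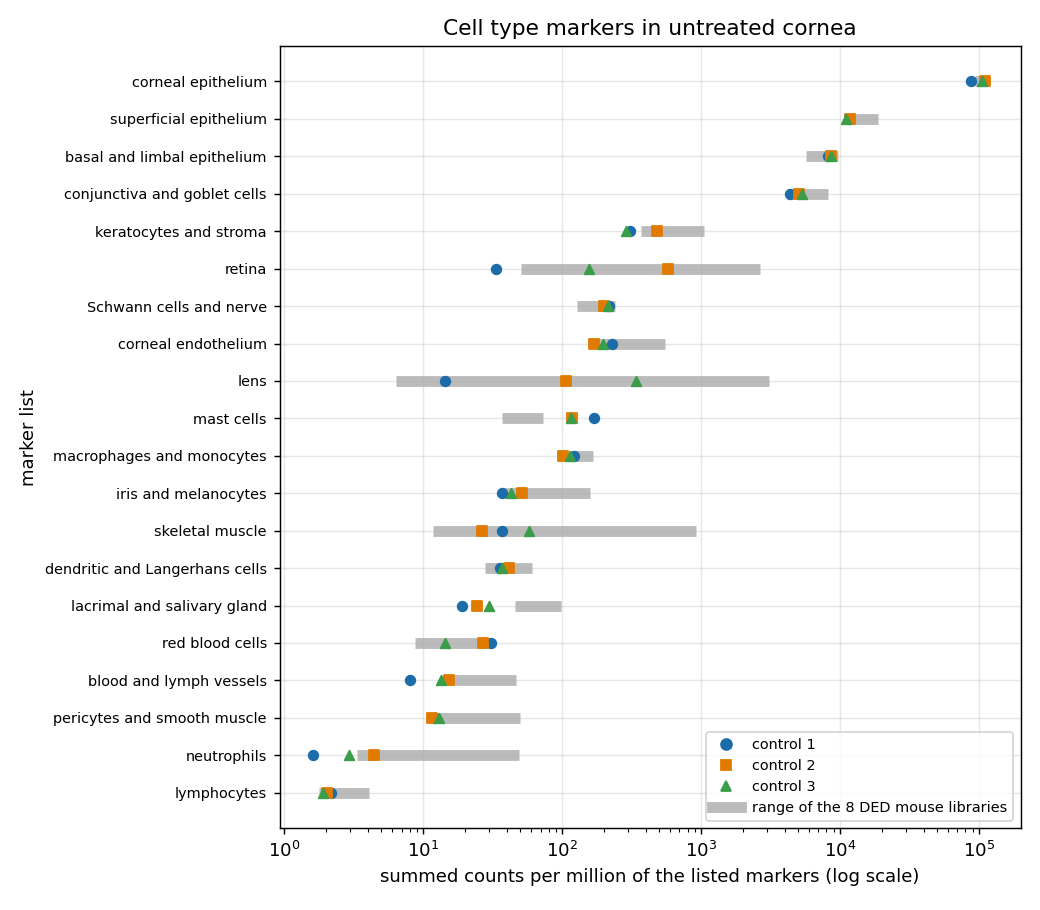
Summed counts-per-million values (CPM, log axis) of the markers of 20 cell types and neighbouring tissues, with 1 marker per control library and a grey bar for the range of the 8 DED mouse libraries. The corneal epithelium list is at 87183 to 111367 CPM in untreated cornea, the keratocyte list at 291 to 484 CPM, and the retina and lens lists show the widest spread.

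The spread between the 3 libraries was larger than counting error at every level of expression. The median CV was 25.3% for genes of 1 to 10 CPM, 13.8% for 10 to 100 CPM, 11.4% for 100 to 1000 CPM and 10.5% above that, while counting error alone would give 15.6%, 5.34%, 2.29% and 0.686%. Among the 1670 genes at a mean of 100 CPM or more, predicted genes left out, 86 of the 100 most variable were highest in control 1. Their median exon length was 6900 bases, against 3781 bases for the 100 least variable and 4409 bases for all 1670.

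Level followed exon length differently in each library. For 8557 genes at a mean of 10 CPM or more, split by exon length into 5 classes of nearly equal size, the median log2 ratio of control 1 to the other controls was -0.12 in the shortest class and 0.37 in the longest. In control 2 it was 0.12 in the shortest class and -0.28 in the longest. Across these genes, which are not independent replicates, Spearman's rank correlation between exon length and that ratio was 0.524 for control 1, -0.434 for control 2 and -0.214 for control 3.

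The most variable genes included interferon-induced and mitochondrial transcripts. Isg15, a ubiquitin-like protein induced by interferon, had 25.5, 145 and 141 CPM in control 1, 2 and 3, and Irf7, an interferon regulator, had 46.3, 139 and 130 CPM. Both were low in control 1. A list of 20 interferon-stimulated genes, drawn up after these values were seen, summed to 591, 1273 and 1352 CPM, and the DED mouse libraries ran from 780 to 4535 CPM. Xist, the long RNA of X inactivation, had 1358, 403 and 638 CPM, highest in control 1, and the DED mouse libraries ran from 141 to 391 CPM. The mitochondrial transcripts mt-Nd4 at 1170, 442 and 598 CPM, mt-Nd5 at 1021, 388 and 595 CPM and mt-Cytb at 3434, 1353 and 1926 CPM had the same order of libraries.

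Ogt, the enzyme that adds GlcNAc to nuclear proteins, Nfat5, a factor of osmotic stress, Chl1, Cd44, the hyaluronan receptor, Dsc3, a desmosomal cadherin, and Fam169a were the other named genes of largest CV, all highest in control 1. Dsc3, for example, had 1291, 541 and 627 CPM, and Cd44 had 609, 258 and 291 CPM. At the stable end, Rpl3 had 994, 988 and 992 CPM (CV 0.350%), and Mta2, Epb41l4b, Rpl17, Jpt1 and Ppp3ca had CVs of 0.494% to 0.834%.

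**Figure D4:**
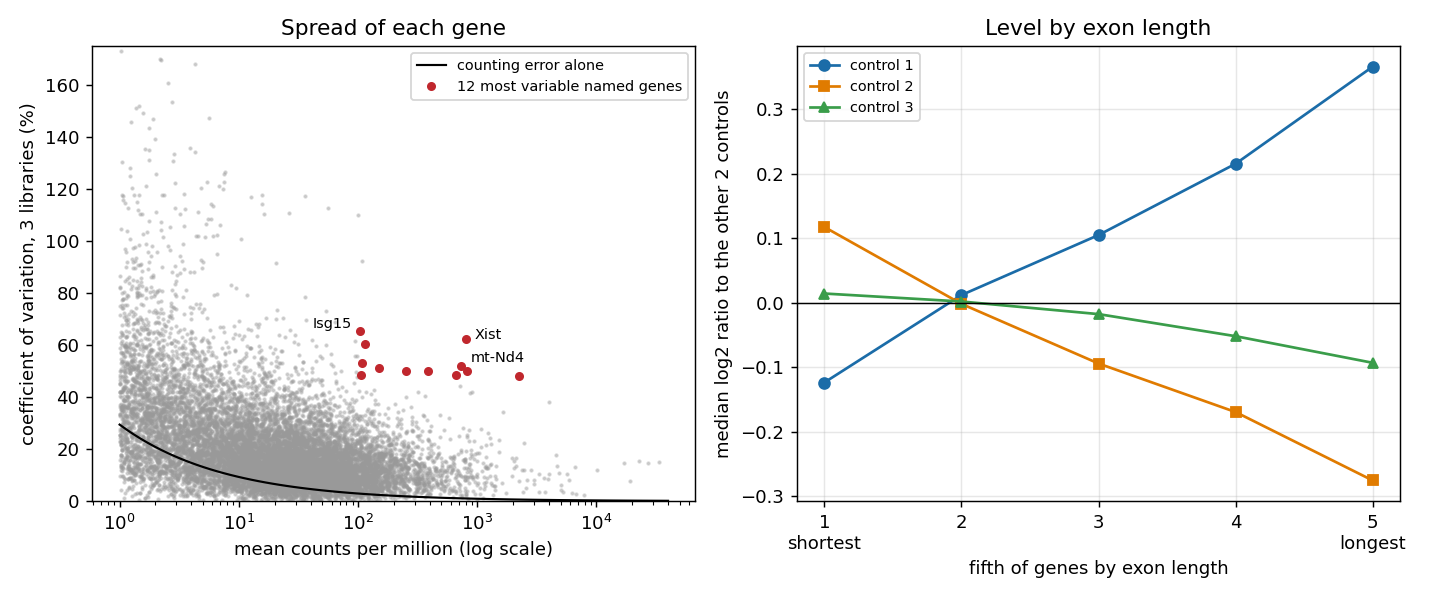
Left, CV over the 3 control libraries against mean CPM (log axis) for each gene at 1 CPM or more, with the CV that counting error alone gives as a line and the 12 most variable named genes at 100 CPM or more in red. Right, median log2 ratio of each control library to the other controls in 5 classes of genes by exon length, which is 0.37 for control 1 and -0.28 for control 2 in the longest class.

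Most of the leading genes were leading genes in the DED mice too. Of the 30 most abundant genes, 28 were shared by the 3 control libraries, and each DED mouse library shared 25 to 28 with the control mean. Of the 100 most abundant, 81 were shared by the 3 controls and 66 were among the first 100 of all 11 libraries.

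To ask which genes set untreated cornea apart, its mean was compared with the equal-weight mean of the 3 DED mouse groups (limma on log2(normalized count + 1), two-sided, adjusted by Benjamini-Hochberg over 21203 genes, threshold 0.05). Normalized counts are counts divided by a size factor per library. The test called 948 genes, 4.47% of those tested, of which 403 (1.90%) were higher and 545 (2.57%) lower in untreated cornea, and 316 differed by at least 2-fold. The split depended on scaling, with 42.5% of the calls higher in untreated cornea as normalized here, 83.7% of 2283 calls with library totals and 24.6% of 1213 calls with upper quartile scaling, and the median log2 fold change of all genes was -0.02, 0.17 and -0.09 under the 3 scalings. The count depended on which library was left out. It was 31 without control 1, 98 without control 3 and 885 without control 2, where 592 were among the 948. Among the DED mouse libraries the count ran from 192 without eye drop 1 to 3632 without i.v. 3. The genes called higher had a median exon length of 6965 bases and those called lower 2260 bases, against 3356 bases for all tested. Exon length moved with control 1 in the same direction, and its part in the calls was not tested.

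Of the 4 defining genes Gsto1 passed the threshold, and Krt12, Krt5 and Aldh3a1 did not. Krt12 had 264102, 386844 and 360593 normalized counts in untreated cornea, against 377451 to 514421 in the DED mice, with a log2 fold change of -0.31 ± 0.16 (SE, limma adjusted p = 0.255). In normalized counts control 1 and 3 were below every DED mouse library and control 2 was within their range. In CPM only control 1 was below them, at 27520 CPM. Control 2 and 3, at 36893 and 35184 CPM, were within the 30915 to 44970 CPM of the DED mice. Krt5 differed by 0.02 ± 0.16 (adjusted p = 0.964) and Aldh3a1 by -0.02 ± 0.16 (adjusted p = 0.946) on the log2 scale (SE, limma). Of the 24 genes among the 30 most abundant that were not called, 9 turned sign under another scaling or without control 1, Krt5 and Aldh3a1 among them. Of the 30 most abundant genes, 6 were lower in untreated cornea and none was higher, which is 20% against 2.57% of all genes lower. This was not particular to the 30. Of the 100 most abundant genes 19% were called (1 higher and 18 lower), and of the 500 most abundant 13.4% (10 higher and 57 lower). With library totals 4 of the 30 were lower, with upper quartile scaling 7, and without control 1 none was called, while 1 was called without control 3 and 1 without eye drop 1. The median log2 fold change of the 30 was -0.32, against -0.02 over all genes.

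Gsto1 had 166779, 201958 and 207969 normalized counts in untreated cornea, against 210235 to 417299 in the DED mice (log2 fold change -0.68 ± 0.15 SE, limma adjusted p = 0.0216). The groups did not overlap in normalized counts but did in CPM, where control 3 had 20292 CPM and the lowest DED mouse library 19456 CPM. Asprv1 had 62033, 70522 and 70039 normalized counts in untreated cornea, against 94347 to 173397 in the DED mice (-0.85 ± 0.14 SE, adjusted p = 0.00674 by limma). These groups were clearly apart. Those of Tmsb4x did not overlap but lay close, at 52352, 61778 and 65883 normalized counts, against 71084 to 178003 in the DED mice (-0.78 ± 0.17 SE, adjusted p = 0.0187 by limma). In CPM the highest control had 6428 CPM and the lowest DED mouse library 6578 CPM. The groups did not overlap for S100a6 and Mal and overlapped for Rplp0. S100a6 differed by -0.74 ± 0.17, Rplp0, a protein of the large ribosomal subunit, by -0.58 ± 0.15 and Mal by -0.54 ± 0.15 on the log2 scale (SE), with limma adjusted p of 0.0244, 0.0435 and 0.0455. With library totals Mal and Rplp0 lost the call. Without control 1 all 6 kept their sign, at -0.47 to -0.78, and lost the call, with limma adjusted p of 0.0971 to 0.303.

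**Figure D5:**
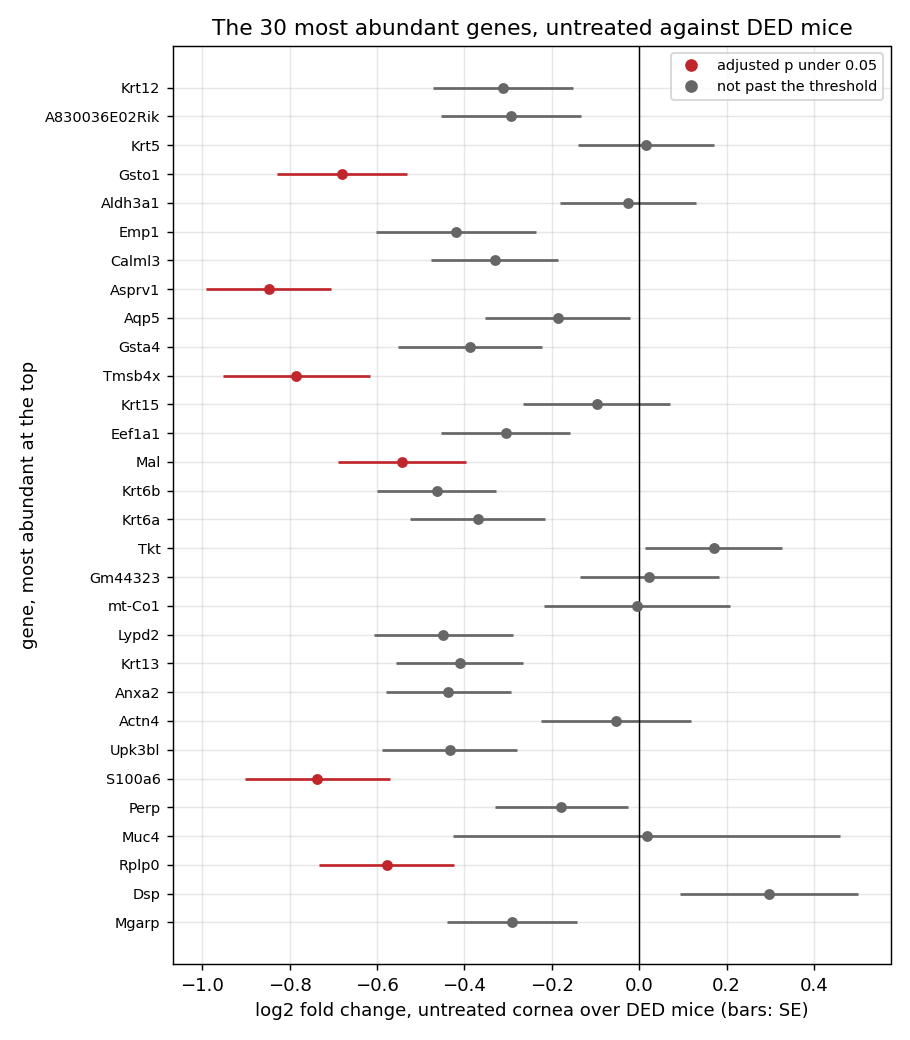
Log2 fold change of the 30 most abundant genes, untreated cornea over the DED mice, with bars for 1 SE and the 6 genes past an adjusted p of 0.05 in red. All 6 lie to the left of 0 (lower in untreated cornea), Krt5 and Aldh3a1 lie at 0 within their error, and without control 1 none of the 6 stays past the threshold.

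Across all genes, those of smallest p and at least 2-fold higher in untreated cornea included Itgb4 and Col17a1 of the hemidesmosome. Itgb4, an integrin chain, had 2135, 1638 and 1884 normalized counts in untreated cornea, against 591 to 1223 in the DED mice (log2 fold change 1.18 ± 0.15 SE, limma adjusted p = 0.00145). Col17a1, its transmembrane partner, had 13893, 9857 and 11768 normalized counts in untreated cornea, against 4367 to 7211 in the DED mice (1.05 ± 0.15 SE, adjusted p = 0.00218 by limma). Neither gene overlapped between the groups. The others were Cyp26b1, which degrades retinoic acid (1.42), the semaphorin receptors Plxnb1 (1.17) and Plxna3 (1.28), the polarity cadherins Celsr1 (1.38) and Celsr2 (1.40), and the Notch ligand Jag2 (1.15). Without control 1 all but Jag2 (adjusted p = 0.0524 by limma) stayed past the threshold.

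Lower in untreated cornea by the same rule were AA467197 (-1.97), Gch1, the first enzyme of tetrahydrobiopterin synthesis (-1.88), Pigz (-2.30), Ifitm1, an interferon-induced membrane protein (-1.26), Plac8 (-1.32), Vnn1, a pantetheinase (-1.65), Ly6a, known as Sca-1 (-1.28), and Il1f8, a cytokine of the IL-36 group (-1.68). Gch1 had 81.4, 123 and 123 normalized counts in untreated cornea, against 300 to 759 in the DED mice (limma adjusted p = 0.000207). Ifitm1 had 7475, 8805 and 8409 in untreated cornea, against 15511 to 25417 in the DED mice (limma adjusted p = 0.000873). The untreated libraries lay below every DED mouse library for both. All 8 genes stayed past the threshold without control 1. Without limma's trend and robust estimation Cyp26b1, Plxnb1, Celsr1, Celsr2, Col17a1, Jag2, Vnn1 and the 6 abundant genes above lost the call.

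Genes of basal anchorage were among those higher in untreated cornea. The lists in this and the following paragraphs were chosen with earlier results of these data known. Their shares set against all genes are thus a description. Of 24 desmosome and hemidesmosome genes, 6 were higher (25%, against 1.90% of all genes) and none lower. All 6 belong to the hemidesmosome or its laminin, among them Itgb4, Col17a1, Dst, Lama3 and Lamb3. Itgb4 and Col17a1 have exon lengths of 7015 and 6011 bases, against a median of 3356 bases for all genes tested. The part of exon length in these calls, and in those of the lists that follow, was not tested. The list median was 0.42 on the log2 scale, against -0.02 over all genes. With upper quartile scaling 6 were higher, with library totals 12, and without control 1 there were 2. Of 10 basal and limbal genes tested, 4 were higher and 1 lower, so 50% were called, against 4.47% of all genes. The counts were the same with upper quartile scaling and were 5 and 1 with library totals. They were 2 and none without control 1, where Lrig1, Trp63 and Ifitm3 lost the call. Lrig1, a brake on receptor kinases in stem cells, was higher by 0.87 ± 0.14 (SE, limma adjusted p = 0.00421) and Trp63 by 0.65 ± 0.15 (SE, limma adjusted p = 0.0288), while Ifitm3 differed by -0.91 ± 0.23 (SE, limma adjusted p = 0.0404). Laminins gave 4 of 11 higher (36.4%, against 1.90% of all genes), among them Lama3, Lamb1 and Lamb3. With upper quartile scaling 4 were higher and 1 lower, with library totals 7 were higher, and without control 1 none was called.

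Receptors showed the same direction. Of 24 growth factor and signalling receptors, 8 were higher and none lower in untreated cornea, 33.3% against 1.90% of all genes higher, with a list median of 0.54. They were the fibroblast growth factor receptors Fgfr2 and Fgfr3, Igf1r, Notch1, Notch3, Fzd6, Tgfbr1 and Ngfr. Ngfr, the low-affinity neurotrophin receptor, had 408, 363 and 369 normalized counts in untreated cornea, against 111 to 193 in the DED mice (1.23 ± 0.18 SE, limma adjusted p = 0.00248). Notch1 had 840, 706 and 703 normalized counts in untreated cornea, against 259 to 509 in the DED mice (1.12 ± 0.18 SE, limma adjusted p = 0.00455). The groups of both genes were apart. With upper quartile scaling 8 were higher, with library totals 15, and without control 1 there was 1.

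Clock genes moved in both directions. Of 18, 6 were higher in untreated cornea (Per3, Nr1d1, Nr1d2, Tef, Hlf and Bhlhe40) and 1 was lower (Cry1). Together 38.9% were called, against 4.47% of all genes, and the list median was 0.57. The groups overlapped for Nr1d1, Nr1d2, Tef, Hlf and Cry1. The DED group had the lowest mean for Per3, Nr1d1, Nr1d2, Tef and Bhlhe40 and the highest for Cry1, while the i.v. group had the lowest for Hlf. Nr1d2 averaged 1197 normalized counts in untreated cornea, against 343 in DED, 1077 in eye drop and 746 in i.v. mice. Tef averaged 2024 normalized counts in untreated cornea, against 576 in DED, 2183 in eye drop and 1775 in i.v. mice, and Nr1d1 averaged 1755 in untreated cornea, against 534 in DED, 1504 in eye drop and 1514 in i.v. mice. Per3 had 1360, 927 and 911 normalized counts in untreated cornea, against 285 to 758 in all DED mice, with no overlap (1.05 ± 0.16 SE, limma adjusted p = 0.00321). With upper quartile scaling 4 were higher and 1 lower, with library totals 9 and 1, and without control 1 none was called.

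Antimicrobial and S100 proteins went the other way. Of 17 tested, 11 were lower and none higher in untreated cornea, 64.7% against 2.57% of all genes lower, with a list median of -0.83. This list too was chosen with earlier results known. S100a10 had 10300, 11931 and 14009 normalized counts in untreated cornea, against 22140 to 34833 in the DED mice (-1.04 ± 0.15 SE, limma adjusted p = 0.00267). Ltf, the iron-binding lactoferrin of tears, had 174.6, 248 and 296 normalized counts in untreated cornea, against 508 to 1114 in the DED mice (-1.67 ± 0.23 SE, limma adjusted p = 0.00218). The other called members were S100a1, S100a6, S100a7a, S100a11, S100a14, S100a16, Lyz2, Defb1 and Pglyrp1. With upper quartile scaling 11 were lower, with library totals 9, and without control 1 there was 1.

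Ribosomal protein genes gave 15 of 83 lower (18.1%, against 2.57% of all genes) and none higher, with a median of -0.56. This count depended on scaling, at 35 with upper quartile scaling, 3 with library totals and none without control 1. Of the keratins, 3 of 40 tested were lower (Krt7, Krt20 and Krt23), 7.50% against 2.57% of all genes lower, and none was higher. Krt20 had only 3, 1 and 5 counts in control 1, 2 and 3. The percentages that follow are shares of the tested members called, against 4.47% of all genes called in either direction. Of the superficial epithelium list 2 of 10 were lower, Slurp1 and Psca (20%). The Ly6/uPAR family gave 6 of 21 lower (Ly6a, Ly6d, Ly6e, Psca, Slurp1 and Slurp2, 28.6%), and 6 with upper quartile scaling, 4 with library totals and 1 without control 1. Of the corneal transcription factors, 3 of 30 were higher (Trp63, Tfap2c and Otx1) and 3 lower (Hopx, Id2 and Id3), 20% together. Of the corneal epithelium list, Cdh1, the epithelial cadherin, was higher and Gsto1 lower among 12 (16.7%). Antioxidant enzymes gave 2 of 21 lower, Gsto1 and Txn1 (9.52%), and glycolysis 1 of 18 lower, Pgk1 (5.56%). Cell cycle genes gave 1 of 23 higher, Ccnd2, a share of 4.35%, which averaged 1063 normalized counts in untreated cornea, against 356 in DED, 1060 in eye drop and 920 in i.v. mice. Junctions gave 2 of 19 higher, Cdh1 and Cldn8, and 1 lower, Cldn23 (15.8%). Transport gave Trpv4 higher and Slc6a14 lower among 21 (9.52%), and the glycocalyx list gave Cd44 higher and Lgals3 lower among 13 (15.4%). Protease inhibitors and matrix enzymes gave Cstb and Mmp3 lower among 16 (12.5%), and immediate early genes gave Ier3 lower among 18 (5.56%). The shares of the glycolysis, cell cycle and immediate early lists were near that of all genes. Without control 1 no member of the ribosomal, keratin, superficial epithelium, transcription factor, corneal epithelium, antioxidant, glycolysis, cell cycle, junction, transport, glycocalyx, protease or immediate early lists was called. Of the cell cycle genes, 5 were higher with library totals and none with upper quartile scaling.

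Some markers of minor cell types were called in the same contrast. Pericyte and smooth muscle markers gave 3 of 7 lower in untreated cornea (Acta2, Myh11 and Rgs5, 42.9%) and keratocyte markers 2 of 17 (Vim and Cd34, 11.8%). Vessel markers gave 2 of 13 lower (Tie1 and Emcn, 15.4%) and iris and melanocyte markers 2 of 8 (Mlana and Oca2, 25%). None of these lists had a called member without control 1. Of all genes, 2.57% were called lower. Counts were few for Emcn, at 0 to 5.78 normalized counts in untreated cornea, and for Oca2, at 0.740 to 2.89. S100b was lower and Ngfr higher among 10 Schwann cell and nerve markers (20% called, against 4.47% of all genes). S100b had only 0.933 to 1.93 normalized counts in untreated cornea. Lower too were 1 of 8 endothelium markers (12.5%), Krt7 among 9 conjunctiva markers (11.1%), Lyz2 among 14 macrophage markers (7.14%) and Ltf among 3 lacrimal markers (33.3%). The marker sums were 291 to 484 CPM in untreated cornea and 369 to 1056 CPM in the DED mice for keratocytes, and 11.7 to 12.9 CPM in untreated cornea and 11.8 to 49.8 CPM in the DED mice for pericytes. Vim, the filament protein of stromal cells, differed by -1.74 ± 0.29 (SE, limma adjusted p = 0.00923). Kit was higher in untreated cornea by 1.11 ± 0.21 (SE, limma adjusted p = 0.0124) while no other mast cell marker was called, and without control 1 Kit lost the call. No call was made by limma among 20 lens, 23 retina and 17 skeletal muscle markers, 6 dendritic cell, 6 lymphocyte, 3 neutrophil and 5 red blood cell markers, the 20 interferon-stimulated genes or Xist. At an unadjusted p under 0.05, which 23.7% of all genes reached, 6 of the interferon-stimulated genes, 2 retina, 1 lymphocyte and 1 neutrophil marker were lower in untreated cornea, Xist was higher, and no lens, muscle, dendritic or red blood cell marker passed. The part of these cell types in the calls on epithelial genes was not tested.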

How the data were processed

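Total RNA of mouse cornea was sequenced after library preparation with a NEBNext Ultra kit, per the labels' protocols. The authors deposited log2 values, 1 column per sample, for 28548 rows named by gene symbol. The deposited unit is log2(count + 1), since back-transformed values lay within 0.01 of a whole number in 99.9748% of cases, and counts were recovered by rounding. The build is mm9, per the submitters' processing notes. Aligner, counter and strand setting: not given in the sources used here. Rows that were not whole (10) or named by a date (9) were left out, at most 0.0495% of a library's counts, and 28529 were used.

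CPM is counts over the library total. TPM divides by the union of exons in GENCODE M21 (build GRCm38, used for lengths and overlaps only), for 27216 genes of at least 200 bases. The comparison used limma 3.58.1 in R 4.3.3 with trend and robust estimation, on log2(normalized count + 1), with median-of-ratios size factors, keeping genes that reached 1 normalized count in 3 or more libraries. All 11 libraries shared the estimate of the spread, with 7 residual degrees of freedom. Ranks within untreated cornea are a description and have no test.

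Named were the 30 genes of highest mean CPM, the 15 of highest TPM, up to 4 leading members of each list, the 12 most and 6 least variable, and 8 genes in each direction of smallest p at 2-fold or more, predicted genes left out. Others were chosen after their values were seen, and some genes the rule names are not reported here. The members and the 20 cell type and 14 pathway lists were chosen with earlier results of these data known. Alternatives were other scalings, filters, pseudocount and variance model, a replicate block, the averaged column and leaving out each library.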

Additional observations from a re-analysis of the deposited data

How the results depend on the processing

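The share of counts in the 100 most abundant genes was 45.07% per length, and with each control left out it ran from 32.453% to 34.475%. Genes at the threshold in all 3 libraries numbered 8508 at 10 CPM, and 13417 to 13480 with each control left out. The mean keratin sum ran from 73992 to 84027 CPM with each control left out. The count of genes called between untreated cornea and the DED mice, 948, was 28 without limma's trend and robust estimation, 2283 with library totals and 2167 with the averaged eye drop 3 column, and ran from 31 (without control 1) to 3632 (without i.v. replicate 3) with each library left out. It was 98 without control 3, 192 and 511 without eye drop 1 and 2, 467 and 443 without DED 2 and 3 and 510 without i.v. 1. The cause was not tested. The other settings kept the count within 1.5 times. None of 73 called genes, the listed members and those among the 30 most abundant, changed sign without control 1. None did with the other scalings either, but that check could not show a change. Another scaling moves all genes by nearly the same amount, which was smaller than these fold changes. Mal, for example, had -0.54 as normalized here, -0.62 with upper quartile scaling and -0.33 with library totals. With the replicate number as a block 788 genes were called. Over 15 pairs of same-numbered libraries the deviations correlated from -0.15 to 0.241, and only control 1 with DED 1 was over 0.1. With 2 or 3 libraries per group, these values cannot show whether an equal number marks a shared animal or day. Depth limits weak genes most, since counting error alone gives a median CV of 15.6% at 1 to 10 CPM.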
